A study of Mus musculus with 6 samples.

Results

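The 9 genes described here belong to the complement system and were followed in bone-marrow-derived macrophages (BMDMs). They were C1qa, C1qb, C1qc, C2, C3, Cfb, Cfp, Serping1 and Cd55. They were picked by gene symbol from a table of 54532 genes, all 9 had a row in it, and 6 of the 9 passed the filter on low values described next. BMDMs are macrophages grown in culture from mouse bone marrow, here from C57BL/6 mice in medium conditioned by L929 cells. The data comprised 6 poly-A RNA-seq libraries in 3 groups of 2, named replicates A and B. One group was left untreated, a second received lipopolysaccharide (LPS, 100 ng/ml) for 2 h, and the third, Met + LPS, was given the same LPS stimulation after 6 h with metformin (5 mM). LPS comes from the envelope of Gram-negative bacteria and is sensed through TLR4, and metformin is an antidiabetic drug that inhibits complex I of the respiratory chain. No group received metformin without LPS, so a difference between Met + LPS and LPS that was already there before LPS cannot be told apart from a different response to LPS. The BMDMs had been seeded in duplicate, and no label ties a replicate to a mouse, so p-values measure only the spread between these libraries, which may be technical.

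Complement is a set of plasma and membrane proteins that tag microbes and dying cells for uptake and can perforate membranes. The classical pathway starts when C1q, built of A, B and C chains, binds antibody or apoptotic cells and activates its proteases, which cut C4 and C2. In the alternative pathway C3b binds factor B (Cfb), and properdin (Cfp) stabilises the resulting convertase, while C1 inhibitor (Serping1) and decay-accelerating factor (Cd55) restrain the C1 proteases and the C3 convertases. The liver makes most circulating complement proteins, whereas tissue macrophages are a main source of C1q and myeloid cells a main source of properdin.

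Transcript levels are given as TPM, a unit of relative transcript abundance in which reads are divided by exon length and each library is scaled to the same total. Reads on genes, recovered from the TPM values and exon lengths, ranged from 25457016 to 30762755 per library. Tests used limma on log2(TPM + 1) for the 12755 genes that reached 1 TPM in 2 or more libraries, fitted over the 3 groups together and adjusted after Benjamini-Hochberg over every gene tested. The median log2 fold change of these genes was -0.48 for LPS vs. untreated, -0.03 for Met + LPS vs. LPS and -0.48 for Met + LPS vs. untreated, so that a gene at -0.48 after LPS sat at the middle of all genes. With libraries rescaled by the median ratio over genes, the first of these medians was -0.01, and the split at an adjusted p-value under 0.01 went from 2069 genes higher and 7665 lower after LPS to 3908 higher and 3522 lower. A two-sided exact permutation test cannot go below p = 0.333 with 2 libraries a group, and the limma p-values borrow their spread from all genes. The identity of the cells was checked with 7 macrophage markers, of which all 7 were tested and whose summed level was 43784 to 45679 TPM in untreated, 34482 to 35223 TPM in LPS and 28730 to 28855 TPM in Met + LPS libraries. Markers of B cells, of T or NK cells and of erythroid cells summed to under 1 TPM in every library, and fibroblast and dendritic cell markers to at most 3.21 and 2.88 TPM. Mast cell or basophil markers summed to 0.920 and 1.56 TPM in untreated, 0.181 and 0.397 TPM in LPS and 0.262 and 0.298 TPM in Met + LPS libraries. The 8 neutrophil markers summed to 30.0 to 32.8 TPM in untreated, 26.7 to 28.2 TPM in LPS and 43.6 to 45.9 TPM in Met + LPS libraries, and Ly6g was at 0 in 5 of the 6 libraries. In Met + LPS vs. LPS the 5 tested had log2 fold changes of 0.83 (Elane, adjusted p = 0.0188), 0.61 (S100a9, 0.0824), 0.54 (Mpo, 0.0282), 0.46 (S100a8, 0.161) and 0.43 (Ngp, 0.0335). The part of such cells in the comparison of Met + LPS with LPS was not tested. In bulk RNA, fewer cells that express a gene and less of its RNA per cell cannot be told apart.

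The 3 C1q chains were the most abundant complement transcripts of the set, and C3 showed the large response to LPS. With Met + LPS, 5 of the 6 tested genes were lower than with LPS alone at an adjusted p-value under 0.01. The same was true of 18.0% of the 12755 genes that passed the filter. In Met + LPS compared with LPS, both libraries of one group lay below both libraries of the other for all 9 genes, against 27.1% of the 23749 genes with a value above 0 in any library. For Cd55, and for Cfb, C2 and Serping1 in a fit without the filter, limma gave this difference an adjusted p-value above 0.01. Cfb rests on 4 and 5 reads in LPS against 2 and 4 in Met + LPS libraries, and C2 on 3 and 4 against 2 and 3. For both genes LPS replicate A and Met + LPS replicate B hold equal reads, so their order in TPM comes only from the scaling of the libraries. In LPS compared with untreated BMDMs, 5 of the 9 were lower without overlap (50.6% of the 23749 genes) and 4 were higher without overlap (14.5%). The 4 higher genes were C3, Cd55, Cfb and Serping1, and the 5 lower genes were the 3 C1q chains, Cfp and C2.

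**Figure D1:**
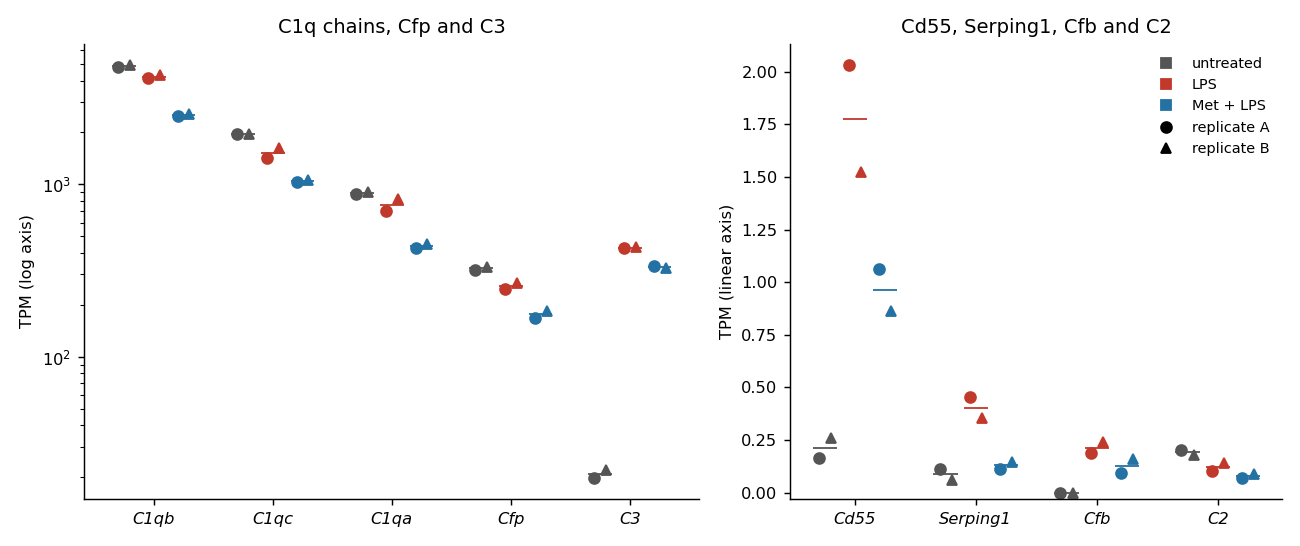
Transcript levels of the 9 complement genes in each library in TPM, on a log axis for the C1q chains, Cfp and C3 (left) and on a linear axis for Cd55, Serping1, Cfb and C2 (right). Each symbol is 1 library, short lines are group means, and in each gene both Met + LPS libraries sit below both LPS libraries.

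C1qa, C1qb and C1qc encode the chains of C1q, and lie side by side on the minus strand within 18675 bases of chromosome 4. C1qb (ENSMUSG00000036905, GRCm38 chromosome 4, 136880129 to 136886187) was listed at 4809 and 4943 TPM in untreated, 4128 and 4306 TPM in LPS, and 2499 and 2559 TPM in Met + LPS libraries. It ranked 20 to 24 among all genes of a library by TPM in untreated and LPS libraries, and came to rank 41 and 43 with Met + LPS. C1qc (ENSMUSG00000036896, chromosome 4, 136889804 to 136893065) was at 1959 and 1957 TPM in untreated, 1413 and 1614 TPM in LPS, and 1030 and 1066 TPM in Met + LPS libraries. C1qa (ENSMUSG00000036887, chromosome 4, 136895917 to 136898803) was at 876 and 908 TPM in untreated, 697 and 825 TPM in LPS, and 426 and 449 TPM in Met + LPS libraries. For each chain the 3 groups did not overlap, with the untreated libraries highest and the Met + LPS libraries lowest. Summed over the chains, C1q transcripts made up 0.773% of all TPM in untreated, 0.649% in LPS and 0.401% in Met + LPS BMDMs (means of 2 libraries).

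After LPS alone, the C1q chains were slightly lower in TPM but not lower than the run of genes. The log2 fold change was -0.37 ± 0.06 (SE) for C1qc (adjusted p = 0.00112), -0.21 ± 0.04 for C1qb (adjusted p = 0.00152) and -0.23 ± 0.08 for C1qa (adjusted p = 0.0266). These values lay 0.11, 0.27 and 0.25 above the median of all genes, and with median-ratio scaling all 3 turned positive (0.15 for C1qc, 0.32 for C1qb and 0.29 for C1qa). Without untreated replicate A or without untreated replicate B the adjusted p-values of C1qb and C1qc were 0.0114 to 0.0213, and the log2 fold change of C1qa was -0.11 (adjusted p = 0.0750) without LPS replicate A and -0.35 (adjusted p = 0.00124) without LPS replicate B. A fall of C1q chains after LPS is therefore stated for TPM and the full set of libraries only.

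In Met + LPS compared with LPS, C1qa fell to 57.5% and C1qb to 60.0% of their LPS levels. The log2 fold change was -0.79 ± 0.08 (SE) for C1qa (adjusted p = 3.4e-04) and -0.74 ± 0.04 for C1qb (adjusted p = 2.7e-05), and both passed the study's cut-offs for this comparison, which ask for a log2 fold change beyond ±0.7 together with adjusted p below 0.01. C1qc was at 69.2% of its LPS level, with a log2 fold change of -0.53 ± 0.06 (adjusted p = 7.2e-04), which passed the p-value and not the fold-change cut-off. Median-ratio scaling left these values at -0.78, -0.72 and -0.51. C1qa depended on a single library for the cut-off, since without LPS replicate B, the higher LPS library for all 3 chains, its log2 fold change was -0.67. Against untreated BMDMs, the Met + LPS levels in TPM were 49.0% for C1qa, 51.9% for C1qb and 53.5% for C1qc. The log2 fold changes were -1.03 ± 0.08, -0.95 ± 0.04 and -0.90 ± 0.06 (adjusted p from 1.4e-06 to 2.3e-05). They shrank to -0.49, -0.41 and -0.36 with median-ratio scaling, so the size of this fall depends on the scaling. Of the 7 macrophage markers, 4 (Adgre1, Fcgr1, Lyz2 and Mertk) were also lower in Met + LPS than in LPS BMDMs at an adjusted p-value under 0.01, whereas Cd68 and Csf1r had log2 fold changes of 0.00 and -0.07. The part of a general shift of macrophage transcripts in the C1q values was not tested.

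**Figure D2:**
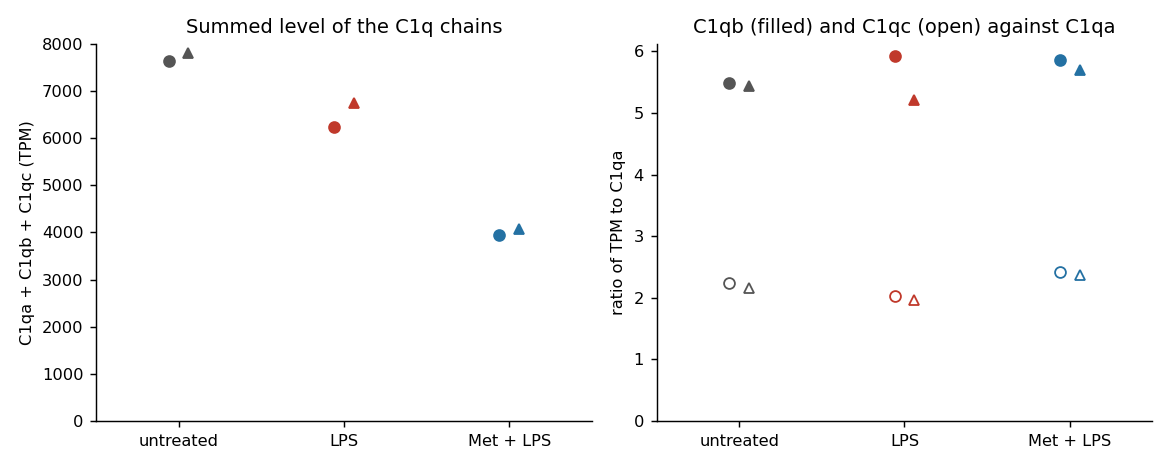
Summed TPM of C1qa, C1qb and C1qc in each library (left) and the ratio of C1qb (filled) and C1qc (open) to C1qa (right), with circles for replicate A and triangles for replicate B. The sum was 7644 and 7808 TPM in untreated, 6238 and 6745 TPM in LPS and 3955 and 4074 TPM in Met + LPS libraries. The ratios ranged from 5.22 to 5.92 for C1qb and from 1.96 to 2.42 for C1qc. For C1qc the groups did not overlap, with LPS lowest and Met + LPS highest.

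The chains are assembled in equal parts, but their transcripts were not listed in equal parts. C1qb exceeded C1qa 5.22-fold to 5.92-fold in TPM in the 6 libraries, with LPS replicates B and A at those limits. C1qc exceeded C1qa 2.24-fold and 2.16-fold in untreated, 2.03-fold and 1.96-fold in LPS and 2.42-fold and 2.37-fold in Met + LPS libraries, so that the groups did not overlap in this ratio. Levels per length depend on the length used. The TPM values of C1qc fit an exon length of 1931 bases, the union of its annotated exons, and with the transcript length of 1203 bases listed in the table its ratio to C1qa would be 3.14 to 3.88. Across the 6 libraries the pattern of C1qa, measured as the Euclidean distance between log2(TPM + 1) values centred on each gene's mean, was nearer to that of C1qb (0.156) than to that of any other gene tested. Among protein-coding genes outside the set, the nearest to C1qa were Ift22 (0.156) and Cbr2 (0.160), and the nearest to C1qb were Pdk3 (0.0771) and Arf2 (0.0815). The distance from C1qb to C1qc was larger, 0.241, with 64 genes nearer to C1qb.

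Cfp encodes properdin, the only known positive regulator of the alternative pathway. Cfp (ENSMUSG00000001128, chromosome X, 20925454 to 20931555, minus strand) was listed at 320 and 332 TPM in untreated, 248 and 269 TPM in LPS, and 168 and 185 TPM in Met + LPS libraries. The 3 groups did not overlap and were ordered as for the C1q chains. Its log2 fold change was -0.33 ± 0.06 (SE) for LPS vs. untreated (adjusted p = 0.00175), which turned to 0.19 with median-ratio scaling and had an adjusted p-value of 0.0132, 0.0226 and 0.0122 without untreated replicate A, untreated replicate B and LPS replicate A. For Met + LPS vs. LPS it was -0.55 ± 0.06 (adjusted p = 5.2e-04, 68.1% of the LPS level), and -0.54 with median-ratio scaling. For Met + LPS vs. untreated it was -0.88 ± 0.06 (adjusted p = 1.4e-05), and only -0.35 with that scaling. The distance between the patterns of Cfp and C1qc was 0.101, and only 4 of the genes tested were nearer to C1qc.

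C3 is the protein on which all complement pathways converge. In limma it alone of the 6 tested genes was past the cut-offs of the study for LPS vs. untreated. These ask for a log2 fold change beyond ±2 together with adjusted p below 0.01 (3.72% of genes tested were past them in the upward direction). The study set them on DESeq2 fold changes and not on log2(TPM + 1), and with voom on recovered reads 2 of the 6 were past them. C3 (ENSMUSG00000024164, chromosome 17, 57203970 to 57228136, minus strand) was listed at 19.7 and 22.0 TPM in untreated, 428 and 432 TPM in LPS, and 334 and 329 TPM in Met + LPS libraries. In mean TPM it was 20.6-fold higher after LPS and 15.9-fold higher in Met + LPS than in untreated BMDMs. The log2 fold change was 4.30 ± 0.05 (SE, adjusted p = 8.8e-09) for LPS vs. untreated and 3.93 ± 0.05 (adjusted p = 1.6e-08) for Met + LPS vs. untreated. The first ranked 106 from the top of the 12755 genes tested.

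Metformin pretreatment came with a lower C3 level, at 77.1% of that with LPS alone. The log2 fold change of C3 for Met + LPS vs. LPS was -0.37 ± 0.05 (SE, adjusted p = 0.00153), which passed the p-value and not the fold-change cut-off. It was between -0.38 and -0.36 when any of the 4 libraries was left out, with adjusted p-values of 0.0111 to 0.0139. The Met + LPS libraries thus stood at 91.3% ± 0.373 (SD, n = 2) of the log2 response of C3 and 76.0% ± 0.903 (SD, n = 2) of its response in TPM. The SD covers the Met + LPS libraries only, with the untreated and LPS means held fixed. With median-ratio scaling the share of the log2 response was 92.5%. The sum of the C1q chains was 354-fold to 387-fold the level of C3 in untreated libraries, 14.6-fold to 15.6-fold in LPS libraries and 11.8-fold to 12.4-fold in Met + LPS libraries. The genes with the pattern nearest to that of C3 were Nfkbie (0.126), which encodes an inhibitor of NF-kB, and Tpbg (0.126).

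Cd55 encodes decay-accelerating factor, a membrane protein that takes C3 convertases apart on the cell's own surface. Cd55 (ENSMUSG00000026399, chromosome 1, 130439027 to 130462744, minus strand) was listed at 0.163 and 0.259 TPM in untreated, 2.03 and 1.52 TPM in LPS, and 1.06 and 0.861 TPM in Met + LPS libraries, from 15, 129 and 76 reads per group. The groups did not overlap, and Cd55 passed the filter on low values only through the stimulated libraries. Its log2 fold change for LPS vs. untreated was 1.19 ± 0.16 (SE, adjusted p = 4.0e-04), which understates its change because the level was low before LPS. In reads it was 8.63-fold higher (exact 95% interval 5.04 to 15.9, counting error only), and with a pseudocount of 0.1 its log2 fold change of 2.599 was past the fold-change cut-off. For Met + LPS vs. LPS it was at 54.1% of the LPS level, but the log2 fold change of -0.50 ± 0.16 (adjusted p = 0.0408) did not pass the p-value cut-off, whereas limma voom on the recovered reads gave -0.89 (adjusted p = 0.0030). Without LPS replicate A, the higher of the LPS libraries, limma gave -0.37 (adjusted p = 0.180). For Met + LPS vs. untreated the log2 fold change was 0.70 ± 0.16 (adjusted p = 0.00561), and this call was lost without any 1 of these 4 libraries (adjusted p = 0.0156 to 0.0353). Of the 31-base stretches of Cd55 transcripts, 87.0% occurred in no other gene and 531 stretches were shared with its paralog Cd55b, which was listed at 0 in every library.

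**Figure D3:**
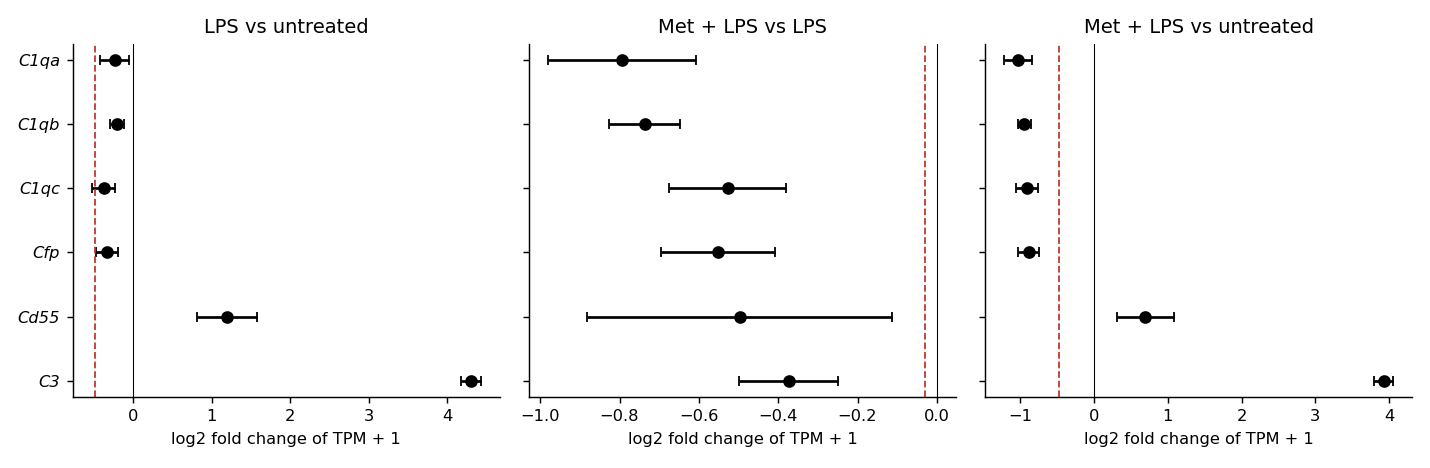
Log2 fold change of TPM + 1 of the 6 tested complement genes in the 3 comparisons, with 95% confidence intervals from limma (n = 2 libraries per group). The dashed line is the median of all genes tested, and in Met + LPS vs. LPS all 6 points lie to the left of it, from -0.79 for C1qa to -0.37 for C3.

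The promoters of C3 and Cd55, both higher after LPS, and of C1qb, the most abundant gene of the set, are shown to set the responding genes beside one that was not higher in TPM. The sequences are the 250 bases before the annotated start in RefSeq (GRCm38.p6), 5′ to 3′ on the minus strand, at chr17:57228137-57228386 for C3, chr1:130462745-130462994 for Cd55 and chr4:136886201-136886450 for C1qb, and capitals mark matches to any of 4 motifs.
C3: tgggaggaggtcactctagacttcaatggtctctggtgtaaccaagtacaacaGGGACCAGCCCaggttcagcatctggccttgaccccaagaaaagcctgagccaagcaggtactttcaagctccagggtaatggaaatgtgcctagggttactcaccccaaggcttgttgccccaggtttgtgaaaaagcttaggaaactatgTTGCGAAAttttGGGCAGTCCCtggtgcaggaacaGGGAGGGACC
Cd55: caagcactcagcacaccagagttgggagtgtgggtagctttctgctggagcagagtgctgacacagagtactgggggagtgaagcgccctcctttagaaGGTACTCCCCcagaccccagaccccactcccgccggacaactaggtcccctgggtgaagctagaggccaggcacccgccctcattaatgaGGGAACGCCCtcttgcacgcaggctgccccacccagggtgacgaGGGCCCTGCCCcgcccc
C1qb: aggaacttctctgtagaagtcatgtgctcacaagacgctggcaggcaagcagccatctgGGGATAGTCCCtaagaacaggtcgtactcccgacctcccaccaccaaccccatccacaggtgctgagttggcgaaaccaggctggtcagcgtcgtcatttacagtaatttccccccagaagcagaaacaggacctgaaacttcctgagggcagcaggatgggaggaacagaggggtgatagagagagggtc
The motifs searched, on both strands, were GGGNNNNNCC for NF-kB, TTGCNNAA for C/EBP, GAGGAAG for PU.1 and TGANTCA for AP-1, and overlapping matches were merged. Counted so that -1 is the base just before the start, C3 had NF-kB matches from -197 to -187, from -33 to -24 and from -10 to -1, and a C/EBP match from -45 to -38. Cd55 had NF-kB matches from -151 to -142, from -61 to -52 and from -17 to -7, and C1qb had one from -191 to -181. No PU.1 or AP-1 match was found in these 3 windows. Of all 32851 promoters of the same length, 45.8% held the NF-kB letters, 9.56% those of C/EBP, 10.6% those of PU.1 and 6.75% those of AP-1, and a match describes letters and not binding. RefSeq promoters were given for 5 of the 9 genes. Of the windows not printed, that of C1qc had NF-kB matches from -41 to -31 and a PU.1 match from -194 to -188, and part of it lies within the annotated gene. That of Cfp had an NF-kB match from -10 to -1. Neither gene was higher after LPS in TPM, so the presence of these letters did not separate the responding genes from the others.

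Cfb, C2 and Serping1 stayed under 1 TPM in all 6 libraries and did not pass the filter on low values. Cfb (ENSMUSG00000090231, chromosome 17, 34856374 to 34862518) encodes factor B, which forms the alternative C3 convertase with C3b. It was listed at 0 in both untreated libraries, 0.186 and 0.243 TPM in LPS, and 0.0937 and 0.160 TPM in Met + LPS libraries, from 0, 9 and 6 reads per group. With the untreated group set to 3 reads in place of 0, the ratio to it was 3.01 for LPS and 1.82 for Met + LPS. These 2 ratios leave out the counting error on the 9 and 6 reads, so the true ratios could be smaller. The ratio of Met + LPS to LPS was 0.605 (exact 95% interval 0.177 to 1.904, counting error only), so no difference between the stimulated groups was detectable at this depth.

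Serping1 (ENSMUSG00000023224, chromosome 2, 84765387 to 84775444, minus strand) encodes C1 inhibitor, which inactivates the C1 proteases. It was listed at 0.113 and 0.0600 TPM in untreated, 0.452 and 0.354 TPM in LPS, and 0.114 and 0.146 TPM in Met + LPS libraries, from 3, 14 and 5 reads per group. The LPS libraries stood above the other 4. The ratio of reads was 4.68 (exact 95% interval 1.31 to 25.4) for LPS to untreated, 0.324 (0.0914 to 0.953) for Met + LPS to LPS and 1.52 (0.295 to 9.78) for Met + LPS to untreated, and these intervals cover counting error only. When limma was run without the filter, on 23749 genes, Serping1 had a log2 fold change of 0.37 (adjusted p = 0.00587) for LPS vs. untreated and -0.31 (adjusted p = 0.0249) for Met + LPS vs. LPS, and Cfb had 0.28 (adjusted p = 0.00850) and -0.11 (adjusted p = 0.252).

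C2 (ENSMUSG00000024371, chromosome 17, 34862604 to 34898265) encodes the serine protease of the classical and lectin C3 convertase. It was listed at 0.204 and 0.180 TPM in untreated, 0.102 and 0.142 TPM in LPS, and 0.0683 and 0.0875 TPM in Met + LPS libraries, from 11, 7 and 5 reads per group. The groups did not overlap, but the ratio of reads was 0.639 (exact 95% interval 0.210 to 1.80) for LPS to untreated and 0.648 (0.162 to 2.37) for Met + LPS to LPS, so neither difference was detectable at this depth. In the limma run without the filter the log2 fold changes were -0.09 (adjusted p = 0.187) and -0.06 (adjusted p = 0.482).

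The values of Cfb and C2 rest on only part of each gene. Both lie on the minus strand, where C2 comes first in transcription and ends 85 bases before Cfb starts. Gm20547, an annotated protein-coding read-through gene on the same strand, shares 2246 of the 2825 exon bases of Cfb and 1656 of the 3872 exon bases of C2. Gm20547 has no exon base of its own and was listed at 0 in all 6 libraries. The same held across the table, since of the 1228 genes whose exon bases all belong also to other genes on either strand, 8 had a value above 0 in any library (0.651%), against 44.6% of the 53267 genes with exon bases of their own. Reads on shared exon bases thus appear not to be in the values, and TPM divides by the full exon length. Own exon bases make up 20.5% of Cfb and 53.1% of C2, and per own exon base Cfb would be at 0.908 and 1.18 TPM in LPS and 0.457 and 0.781 TPM in Met + LPS libraries. C2 would be at 0.384 and 0.340 TPM in untreated, 0.192 and 0.267 TPM in LPS and 0.129 and 0.165 TPM in Met + LPS libraries. The levels of both genes are therefore uncertain and could be higher than listed. The exons of the C1q chains, C3, Cfp and Serping1 overlap those of no other gene, and Cd55 shares 102 exon bases with the antisense gene Gm16083.

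**Figure D4:**
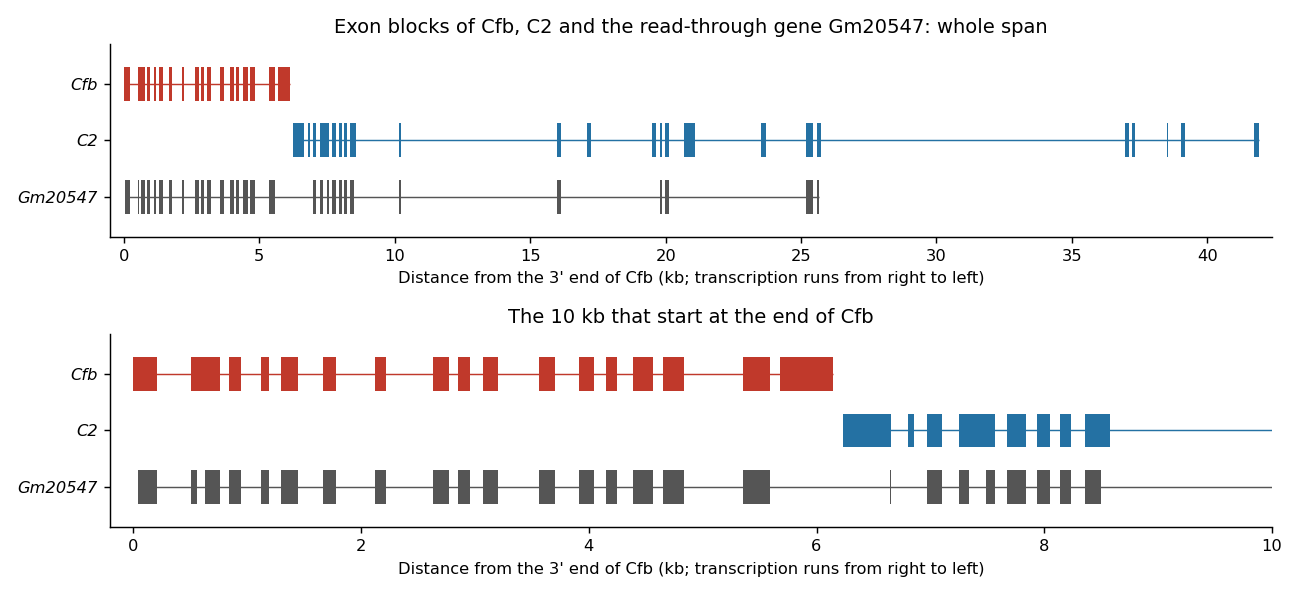
Exon blocks (boxes) of Cfb, C2 and the read-through gene Gm20547 by distance in kb from the 3′ end of Cfb, over the whole span (top) and over the part next to Cfb (bottom), with transcription from right to left. Blocks of Gm20547 stand under most blocks of Cfb, of which 20.5% of exon bases are its own, and under part of the C2 blocks, both near Cfb and up to the far end of Gm20547.

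Within a library, levels per length ran from C1qb through C1qc, C1qa and Cfp to C3 in untreated BMDMs, and C3 stood above Cfp in every LPS and Met + LPS library. Among these 5 genes no neighbours overlapped within a group. Of the other 4, Cd55 and C2 overlapped in untreated libraries and Serping1 and Cfb in Met + LPS libraries, and the place of Cfb and C2 is subject to the uncertainty just given.

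Taking the 6 tested genes as a list, 2 were past the cut-offs in Met + LPS vs. LPS, both downward (4.09% of genes tested were past them in that direction). At an adjusted p-value under 0.01 alone, 5 of the 6 were lower (18.0% of genes tested) and 0 were higher (14.5%), where 0 of 6 were higher also at an unadjusted p-value under 0.05 and with voom. For LPS vs. untreated, 2 of the 6 were higher (16.2%) and 3 lower (60.1%) at that p-value. With median-ratio scaling 3 were higher and 0 lower, beside 3908 higher and 3522 lower among the 12755 genes tested. In both counts 1 of the higher genes is Cd55, which entered the list only through its stimulated libraries. Neither count therefore gives support for a direction of the list. For Met + LPS vs. untreated, 2 were higher (16.3%) and 4 lower (58.8%), a comparison that shares libraries with the others. Cd55 is again 1 of the higher genes, so this count gives no support for a direction either. The median log2 fold change of the 6 was -0.22, -0.54 and -0.89 in these 3 comparisons in the order LPS vs. untreated, Met + LPS vs. LPS and Met + LPS vs. untreated.

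Of 47 other complement genes on a fixed list, 16 were tested. In limma 0 were past the cut-offs for LPS vs. untreated. By the adjusted p-value alone 3 were higher (16.2% of genes tested) and 8 lower (60.1%), and all 16 had an unadjusted p-value under 0.05. With median-ratio scaling this split was 5 higher and 3 lower, beside 3908 higher and 3522 lower among the 12755 genes tested. Voom on recovered reads called 0 as well with the filter and 2 (C1s1 and Cd46, both under 1 TPM in every library) without it. In the same list 2 were past the cut-offs for Met + LPS vs. LPS, both lower (4.09% of genes tested were past them in that direction). C1ra, one of the proteases that C1q activates, went from 3.66 and 3.84 TPM in untreated to 10.0 and 10.3 TPM in LPS and to 3.82 and 4.81 TPM in Met + LPS libraries. Its log2 fold change was 1.23 ± 0.10 (SE, adjusted p = 4.0e-05) for LPS vs. untreated and -1.08 ± 0.10 (adjusted p = 3.2e-04) for Met + LPS vs. LPS, and the Met + LPS libraries stood near the untreated ones (0.16 ± 0.10, adjusted p = 0.201). Its near-identical paralog C1rb was listed at 0 in 5 libraries and at 0.0541 TPM in LPS replicate A, and how reads were split between such copies is uncertain. Fibroblast markers, which could mark other cells that express C1ra, Serping1 and C3, summed to 0.733 to 0.766 TPM in untreated, 2.43 to 3.21 TPM in LPS and 1.91 to 1.93 TPM in Met + LPS libraries, of which Pdgfrb, the 1 of 7 tested, held 1.99 and 2.55 TPM in LPS libraries. The collagen genes Col1a1, Col1a2 and Col3a1 were at most at 0.423 TPM in any library, and the part of such cells in these results was not tested. C5ar2, a receptor for C5a, was at 12.3 and 11.9 TPM in untreated, 9.96 and 9.81 TPM in LPS, and 5.98 and 4.70 TPM in Met + LPS libraries, with a log2 fold change of -0.79 ± 0.10 (adjusted p = 0.00107) for Met + LPS vs. LPS.

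Of the 12 complement receptors and binding partners on the list, 10 were tested. By the p-value alone 1 was higher (16.2% of genes tested) and 6 were lower (60.1%) after LPS. In Met + LPS vs. LPS, 2 were higher (Itgax, 0.49, and C1qbp, 0.58, against 14.5%) and 4 lower (18.0%) by the p-value alone. The 1 higher after LPS was C5ar1, the main C5a receptor, named here after its values were seen, which went from 633 and 674 TPM to 1233 and 1289 TPM with LPS and to 832 and 820 TPM with Met + LPS. Its log2 fold change was 0.95 ± 0.04 (SE, adjusted p = 2.3e-06) and then -0.61 ± 0.04 (adjusted p = 8.6e-05). C3ar1, the C3a receptor, also named after its values were seen, was at 1403 and 1425 TPM in untreated, 804 and 792 TPM in LPS and 835 and 784 TPM in Met + LPS libraries. In contrast to C3, it was lower after LPS (-0.82 ± 0.04, adjusted p = 2.8e-06, and -0.30 with median-ratio scaling), while its Met + LPS libraries overlapped the LPS libraries. Of 13 other regulators, 3 were tested, with 1 higher (Cr1l) and 1 lower (Cd59a, adjusted p = 0.198 with median-ratio scaling) after LPS and 1 lower (Cd59a) in Met + LPS vs. LPS. Of 15 other soluble components of the early steps, 2 were tested, C1ra and Fcna, and 7 were listed at 0 in both untreated libraries, among them Cfd, which encodes factor D. Of 7 terminal components 1 was tested (C8g, lower after LPS), and C6, C7, C8a and C8b were listed at 0 in every library.

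**Figure D5:**
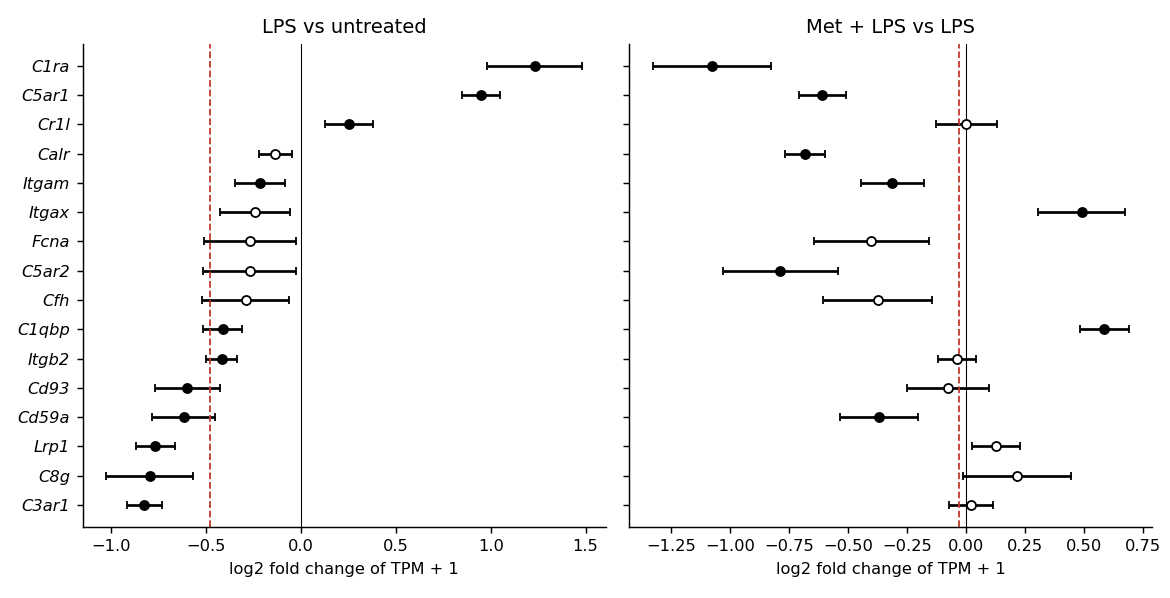
Log2 fold change of TPM + 1 of the 16 tested complement genes outside the set of 9, with 95% confidence intervals from limma (n = 2 libraries per group), for LPS vs. untreated (left) and Met + LPS vs. LPS (right). Filled points have an adjusted p-value under 0.01, the dashed line is the median of all genes tested, and C1ra has the highest point on the left and the lowest on the right.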

How the data were processed

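RNA-seq libraries of BMDMs were analysed in 3 groups of 2 (untreated, LPS, Met + LPS), with groups and replicate letters taken from the sample labels. Per the study's methods and the submitters' processing notes, the authors aligned single-end reads to GRCm38 with STAR 2.6.1d and SAMtools 1.9, counted them per gene with featureCounts (Subread 1.6.3) and deposited TPM values per library, without pooling replicates. How TPM was computed, and the featureCounts setting for reads on several genes, are not given in the sources used here.

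The test was limma 3.58.1 (R 4.3.3, lmFit, then eBayes with its trend option) on log2(TPM + 1), for genes that reached 1 TPM in 2 or more libraries, in a single fit of the 3 groups without covariates. The scripts were tested on simulated data. TPM multiplied by exon length (GENCODE vM21 on GRCm38, 54495 genes matched by identifier) was a whole multiple of a library-wide step, within 0.05, for 96.4% to 96.6% of values above 0, and these multiples served as reads. Ratios of reads carry exact binomial 95% intervals, which cover counting error only. A group without reads was set to 3 reads, and ratios to it carry no interval. Shares of own sequence used exon bases and 31-base stretches of annotated transcripts. Tables and plots used scipy 1.17.1, pandas 2.3.3 and matplotlib 3.10.9 in Python 3.11.15.

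The 9 genes, the lists of other complement genes and the marker lists were chosen with earlier results of these data known. By rule, the text names all 9 genes, the other complement genes past the study's cut-offs in LPS vs. untreated or Met + LPS vs. LPS, the 2 protein-coding genes nearest in pattern to each of the 9 that was past them, and genes that overlap or nearly match one of the 9. Any further complement gene was named after its values were seen. The values of 1 marker gene are not reported here. The motifs were also chosen after the sequences were seen. Alternatives were a pseudocount of 0.1, no filter or a minimum of 5 TPM, median-ratio scaling, a fit of the compared groups only, a replicate block, eBayes without a trend, limma voom on recovered reads, an adjusted p-value cut-off of 0.05, a log2 cut-off of 1, and omission of each library. Voom with median-ratio scaling and voom without the filter were added after seeing the data.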

Additional observations from a re-analysis of the deposited data

How the results depend on the processing

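The number of the 6 tested genes past the cut-offs was 1 for LPS vs. untreated, and 2 with a pseudocount of 0.1, with voom on recovered reads, with voom and median-ratio scaling, and with a fold-change cut-off of 1, with Cd55 added each time. With voom without the filter, 3 of all 9 genes were past them, Cfb included. For Met + LPS vs. LPS the number was 2, then 3 with voom on recovered reads and with voom and median-ratio scaling (Cd55 added), 0 with a fold-change cut-off of 1, and from 1 to 2 when single libraries were omitted. Of the other complement genes, 0 were past the cut-offs for LPS vs. untreated and 2 with voom without the filter. For Met + LPS vs. untreated, which has no fold-change cut-off, 14 passed the adjusted p-value alone and 9 with median-ratio scaling. Of the 12755 genes tested, 9576 and 8044 passed it in these 2 settings. After LPS, the direction turned with the scaling. With median-ratio scaling the log2 fold change was 0.32 for C1qb, 0.15 for C1qc and 0.19 for Cfp, and with voom and median-ratio scaling it was 0.31 for C1qa, 0.34 for C1qb, 0.17 for C1qc and 0.21 for Cfp. In Met + LPS vs. LPS and Met + LPS vs. untreated no member's log2 fold change turned under any alternative run. For Met + LPS vs. untreated the size did depend on the scaling. Median-ratio scaling gave -0.49 for C1qa, -0.41 for C1qb, -0.36 for C1qc and -0.35 for Cfp. It gave 4.45 for C3 and 0.84 for Cd55, and the median of all genes tested was then 0.00. No label says whether libraries with the same replicate letter share a mouse or culture. A minus B differences of the groups correlated across the 12755 genes at -0.00, 0.03 and 0.01, which cannot decide this. For C1qa, C1qb and Cfp replicate B was above replicate A in each group, and for C1qc, C3 and Cd55 it was not. A replicate block left 1 and 2 of the 6 genes past the cut-offs in LPS vs. untreated and Met + LPS vs. LPS and all 6 past the adjusted p-value in Met + LPS vs. untreated, and moved C1qa for LPS vs. untreated to an adjusted p of 0.0073. The smaller adjusted p under a block is no sign of a stronger effect. Depth limits Cfb, C2 and Serping1, with at most 14 reads in a group.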
